A study of Mus musculus with 63 samples.

Results

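The stress and hyperproliferation keratins of cultured mouse epidermal keratinocytes are described here: Krt6a and Krt6b, which are type II keratins, and Krt16 and Krt17, which are type I keratins. They were taken as every array probe that the platform annotation pairs with 1 of these 4 symbols, which gave 7 of 28049 probes and 4 of the 14541 genes named by the annotation. Krt6a had 3 probes (1787090_1, 1789701_1 and 1791205_1, called the first, the second and the third here). Krt6b had 2 probes (1784264_1, the first, and 1791550_1, the second). Krt16 (1775918_1) and Krt17 (1783436_1) had 1 probe each. All 7 probes held a value on all 63 arrays and passed the filter on missing values in every comparison.

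Keratins build the intermediate filaments of epithelial cells from pairs of 1 type I and 1 type II protein. Resting epidermis between the hair follicles makes Krt5 with Krt14 in the basal layer and Krt1 with Krt10 above it, whereas Krt6a and Krt6b with their partners Krt16 and Krt17 belong to hair follicle, nail and oral epithelium. Wounding, inflammation, hyperproliferation and growth in culture switch these keratins on in epidermal keratinocytes, and they are widely used as markers of that activated state. Signals through the EGF receptor (EGFR), AP-1, NRF2 and Hedgehog factors are known inputs to their genes. In the mouse RefSeq annotation Krt6a lies between Krt6b and Krt5, and Krt16 lies between Krt14 and Krt17.

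The cells were keratinocytes from newborn skin of CD-1 mice labelled EGFR wild type (WT) or EGFR knockout (KO), cultured without ras (labelled mock) or transduced with v-rasHa, a viral Hras oncogene, from diluted Psi-2 producer cell supernatant. The labels give 4 days of culture for ras cells and for mock cells with an inhibitor, and name no culture time for mock cells without one. Some cultures then received 1 µM of an EGFR tyrosine kinase inhibitor (AG1478, erlotinib or PD153035) for 2 hours. The 13 groups were WT mock (4 samples) and WT mock with AG1478, erlotinib or PD153035 (5 each), WT ras (5) and WT ras with each inhibitor (5 each), KO mock (3), KO ras (5), and KO ras with AG1478 (6), erlotinib (4) or PD153035 (5). Knockout cells without ras were measured with no inhibitor. Each sample was hybridised on a 2-colour array against Universal Mouse Reference RNA, a pool from mouse cell lines that includes a skin line. A level below is therefore the log2 ratio of sample over reference, and a probe's level cannot be set against that of another probe. The log base is not stated in the sources used here and was taken as 2. The series calls its replicates biological, but the labels name no animal or litter, so p-values measure the spread between these samples. The label "gene knock out" does not describe the Egfr allele.

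The direction of each ratio was turned to sample over reference. The rule puts keratinocyte genes above genes of the reference pool's cell types in the median forward array, and turns each array to match it. Keratinocyte genes then stood 1.59 to 6.16 above those genes on all 63 arrays, a sign that the rule in part fixes. For 2 arrays, KO ras with AG1478 replicates 3 and 4, the dye order in the label and the ratios disagreed: the array labelled forward correlated at r = -0.83 with the median of the forward arrays, and the one labelled reverse at r = 0.805. Their direction is thus not settled by the labels, and results that use this group are given both ways. In the direction of the ratios, keratinocyte genes stood 4.45 (replicate 3) and 4.44 (replicate 4) above the reference pool's genes on these arrays. In the direction of the labels they stood as far below. The knockout itself could not be checked from Egfr: on 1 of its 2 probes the WT samples ranged from 0.43 to 3.6 and the KO samples from 0.22 to 2.77, and on the other from -0.29 to 3.32 and from -0.27 to 1.71. The sources used here do not say where these probes lie relative to the disrupted part of the gene. The median over the 17 measured keratinocyte markers had a group mean of 2.50 to 4.12, over 8 melanocyte markers 0.72 to 2.23, and over the markers of fibroblasts, leukocytes and endothelial cells below 0 in all 13 groups. Bulk RNA cannot tell fewer cells of a type from less RNA per cell.

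All 4 stress keratins were well above the reference in these cultures. The median over 62 samples was 4.73, 4.62 and 5.20 for the first, the second and the third Krt6a probe, 3.88 and 4.48 for the Krt6b probes, 5.46 for Krt16 and 4.26 for Krt17. Between 99.67% and 99.94% of all probes had a lower median. A single value lay below 0, at -0.38 for the second Krt6a probe in KO ras with AG1478 replicate 1.

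The levels varied widely between replicates of a group. The within-group SD ran from 1.115 (the second Krt6b probe) to 1.68 (the second Krt6a probe), against a median of 0.61 over all probes, and 93.8% to 99.6% of probes varied less. Krt16 had its lowest group mean in WT mock (4.02 ± 1.01, SD, n = 4) and its highest in WT ras with AG1478 (7.09 ± 0.93, n = 5). Krt17 ran from 3.03 ± 0.91 to 6.61 ± 0.80 between the same groups. WT mock and WT ras with AG1478 also lay at the ends of the order for the second and the third Krt6a probe.

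The other type II probes had different ends. The first Krt6a probe ran from 3.09 ± 1.54 in WT mock (n = 4) to 5.77 ± 2.04 in KO ras (n = 5). The first Krt6b probe ran from 2.82 ± 1.55 in WT ras with PD153035 (n = 5) to 5.61 ± 0.89 in WT ras with AG1478 (n = 5). The second Krt6b probe ran from 2.67 ± 1.05 in WT mock (n = 4) to 5.68 ± 0.69 in KO mock (n = 3). With the 13 groups ordered by their mean, each of the 12 steps between neighbours was smaller than the larger SD of the groups it parted, for all 7 probes.

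**Figure D1:**
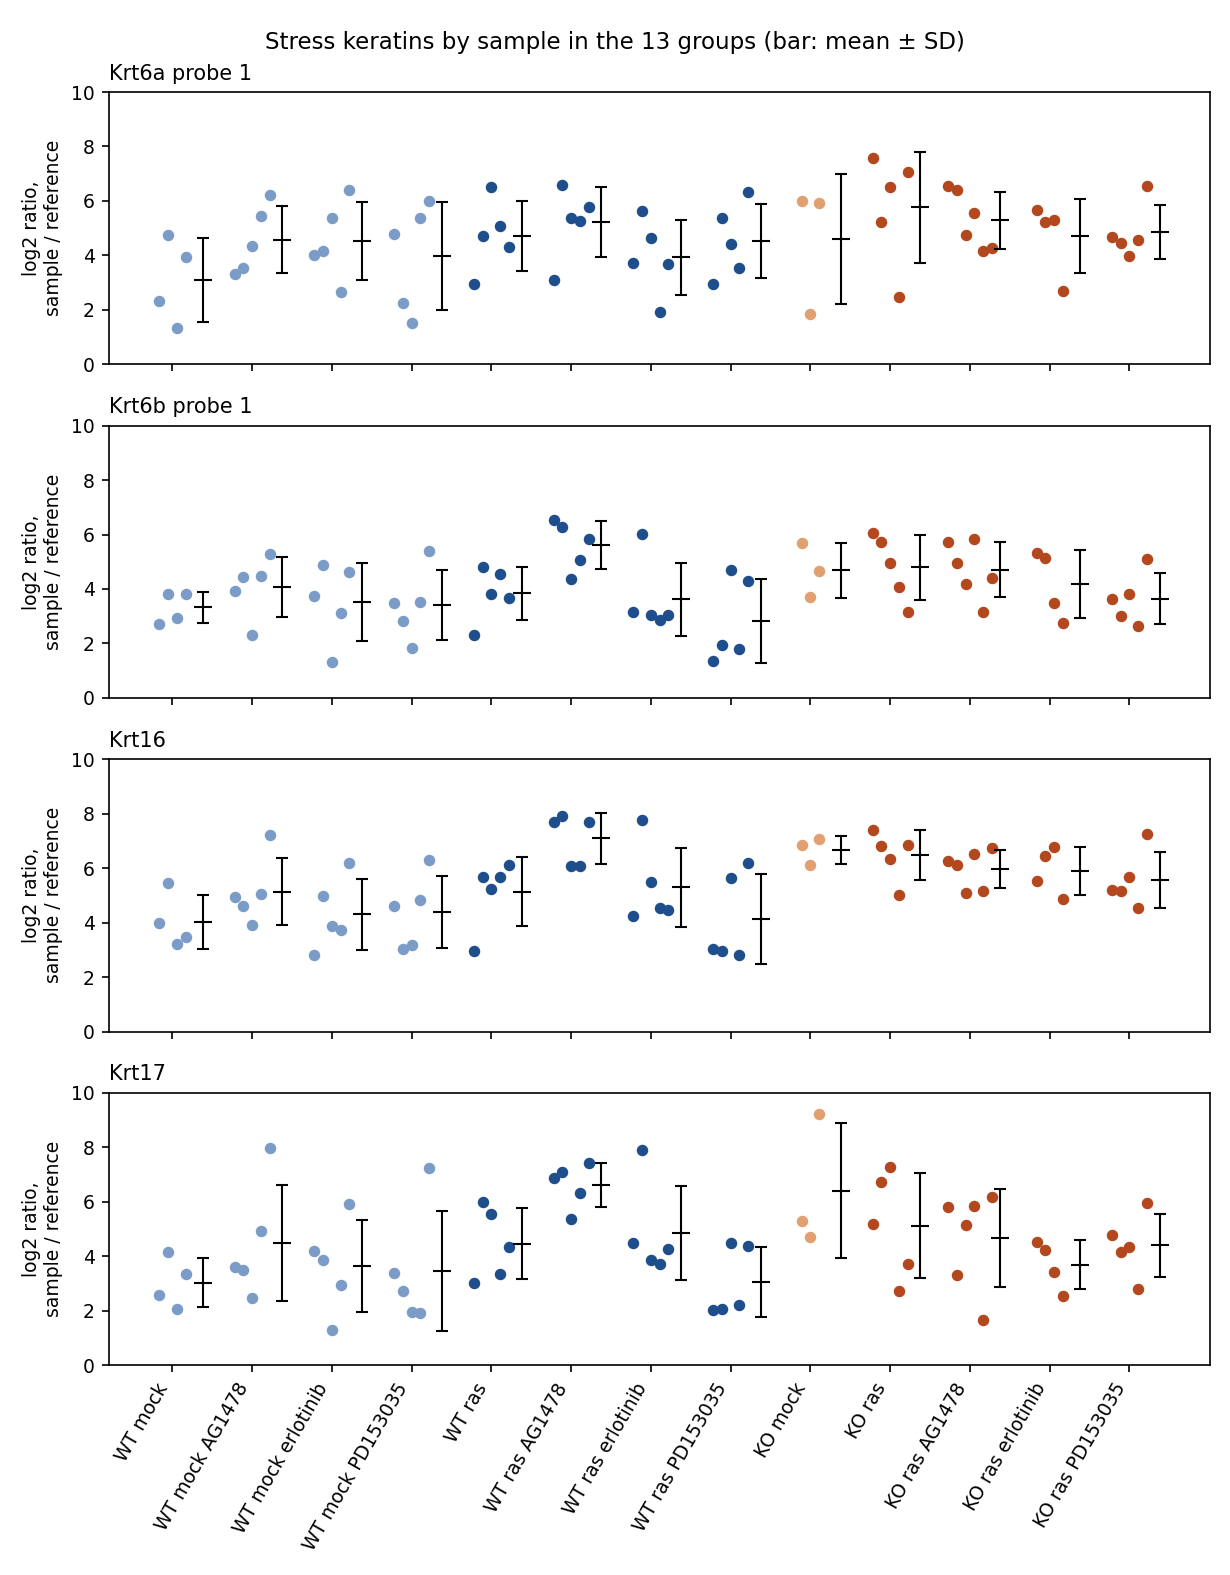
Log2 ratio of sample over reference for the first Krt6a probe, the first Krt6b probe, Krt16 and Krt17, 1 point per sample, in the 13 groups; the bar beside each group is its mean ± SD. WT mock has the lowest mean of Krt6a, Krt16 and Krt17, and the spread within most groups covers several log2 units.

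Loss of EGFR was compared first in cells without ras or inhibitor. The second Krt6b probe read 1.41, 2.31, 3.08 and 3.87 in the 4 WT mock samples and 5.01, 5.67 and 6.38 in the 3 KO mock samples. Every KO sample was above every WT sample. Its KO minus WT difference was 2.94 ± 0.80 (log2, SE) with a limma adjusted p of 0.0483. This was the 1 member probe of 7 that passed the threshold of 0.05, where 0.674% of 27913 tested probes were called higher in KO mock and 1.11% were called in either direction.

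The type I partners showed a gap of like size that did not pass the test. Krt16 read 3.20, 3.45, 4.00 and 5.45 in WT mock and 6.10, 6.85 and 7.08 in KO mock, again with no overlap. Its difference was 2.55 ± 0.81 (adjusted p = 0.0867). Krt17 read 2.07, 2.56, 3.34 and 4.14 in WT mock and 4.69, 5.30 and 9.23 in KO mock. The groups did not overlap, and KO mock replicate 3, at 9.23, was the highest Krt17 value of all samples. The difference was 3.24 ± 1.14 (adjusted p = 0.121), and 1.83 without KO mock replicate 3. Samples of KO mock lay above all WT mock samples in 3 of 7 member probes, where 10.4% of all tested probes did so.

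The probes of Krt6a and the first Krt6b probe did not separate the genotypes. The first Krt6b probe read 2.73, 2.93, 3.81 and 3.83 in WT mock and 3.69, 4.67 and 5.69 in KO mock (difference 1.28 ± 0.83, adjusted p = 0.416). It thus gave less than the second probe of the same gene in the same samples. The third Krt6a probe read 2.74, 2.93, 4.05 and 5.23 in WT mock and 3.81, 6.21 and 7.23 in KO mock (1.91 ± 1.03, adjusted p = 0.321). KO mock replicate 2 was the low sample of that group for all 3 Krt6a probes, at 1.85, 1.32 and 3.81. It was also the low one for the first Krt6b probe (3.69), Krt16 (6.10) and Krt17 (4.69). Only for the second Krt6b probe was it the high one, at 6.38. Its keratinocyte marker median, 2.76, was the lowest of the group. Krt6a and Krt6b are near-identical paralogs, so which transcript a probe of either reads is uncertain.

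The median difference over the 7 probes was 1.91, all positive, against 0.05 over all tested probes. The call of the second Krt6b probe rested on every sample: leaving out any 1 of the 7 ended it, with differences of 2.49 to 3.31 and adjusted p-values of 0.0562 to 0.162. The mean of both Krt6b probes differed by 2.11 ± 0.75 (adjusted p = 0.12). All KO mock arrays came from 1 run of experiment numbers and the WT mock arrays from 2 other runs, so run and genotype cannot be told apart here. With run as a random block the second Krt6b probe gave 2.97 ± 1.03 and adjusted p = 0.466. The keratinocyte marker median, over a list that holds Krt5, Krt14 and Krt15, was 2.87 to 4.43 in WT mock (mean 3.47) and 2.76 to 4.86 in KO mock (mean 4.09), with 17 of 17 genes above 0 in both. The melanocyte marker median was 0.91 to 2.06 in WT mock and 0.42 to 3.71 in KO mock, with 7 of 8 genes above 0 in both. The fibroblast marker median was -1.53 to -0.72 and -0.68 to -0.10, with 2 of 15 and 4 of 15 genes above 0. With each sample centred on its keratinocyte markers the second Krt6b probe differed by 2.37 ± 0.76 (adjusted p = 0.422). The part of these cells in the differences was not tested.

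Other keratins were higher in KO mock as well. Krt14 and Krt15, basal type I keratins, rose by 3.09 ± 0.82 (adjusted p = 0.0447) and 3.13 ± 0.48 (adjusted p = 0.000136), and Krt5, the basal type II keratin, gave 2.57 ± 1.01 (adjusted p = 0.166). Thus 2 of 3 basal keratins were called higher. Of the 2 measured suprabasal keratins, Krt10 rose by 2.37 ± 0.56 (adjusted p = 0.0248) and Krt1 gave 1.18 ± 0.83 (adjusted p = 0.464). Krt84, a hair keratin, rose by 2.84 ± 0.50 (adjusted p = 0.00142), the 1 called of 7 hair keratins. Krt24 fell by 1.25 ± 0.32 (adjusted p = 0.0393), the 1 called of 9 other type I keratins, and none of the 11 other type II keratins was called.

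Genes that activated and wounded keratinocytes switch on with the stress keratins did not move in 1 direction between KO mock and WT mock. Of 25 such genes tested, 1 was called higher and 3 lower, with a median difference of -0.29. Sprr1a, a cornified envelope precursor, rose by 2.65 ± 0.70 (adjusted p = 0.0419). The alarmin S100a9 fell by 2.69 ± 0.65 (adjusted p = 0.0257), the chemokine Cxcl1 fell by 3.67 ± 0.86 (adjusted p = 0.024), and Ptgs2, the inducible prostaglandin synthase, fell by 5.50 ± 0.92 (adjusted p = 0.000628). None of 9 AP-1 subunit genes, 12 NRF2 pathway genes, 4 Hedgehog target genes or 13 keratin linker and desmosome genes was called in this comparison. With run as a random block 2 of these 9 called list genes, Krt15 and Ptgs2, still passed (adjusted p = 0.0446 for both), and the other 7 had adjusted p-values of 0.109 to 0.465.

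The genotypes were then compared in ras cells. Krt16 read 2.96, 5.23, 5.67, 5.69 and 6.12 in WT ras and 5.00, 6.34, 6.81, 6.85 and 7.42 in KO ras. The groups overlapped through the lowest KO sample, and 4 of 5 KO ras samples were above every WT ras sample. The difference was 1.35 ± 0.67 (adjusted p = 0.294). All 7 probes had a positive difference between 0.19 and 1.35, with none called where 1.92% of tested probes were (536 of 27966). Among activated keratinocyte genes, S100a8, S100a9, Il1a and Il24 were called lower in KO ras, the 4 called of 25, and the AP-1 subunit gene Fos fell by 2.45 ± 0.62 (adjusted p = 0.028), the 1 called of 9. WT ras and KO ras share no run either, so run and genotype cannot be told apart. With run as a random block these 5 genes had adjusted p-values of 0.299 to 0.429, and 1 probe of the array was called.

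Transduction with v-rasHa was compared within each genotype. In WT cells all 7 probes were higher with ras, by 0.56 to 1.69, and none was called (adjusted p-values of 0.664 to 0.964), where 0.183% of tested probes were. The second Krt6b probe read 1.80, 4.48, 4.82, 5.06 and 5.06 in WT ras, so 4 of 5 samples were above the WT mock samples given above and WT ras replicate 1 was within them. The difference was 1.62 ± 0.70 (adjusted p = 0.664), with a 95% interval of 0.22 to 3.03. Krt17 read 3.03, 3.36, 4.35, 5.57 and 6.00 in WT ras and differed from WT mock by 1.52 ± 1.00 (adjusted p = 0.856). Krt23, a type I keratin of simple epithelia, rose by 2.47 ± 0.56 (adjusted p = 0.0314) and was the 1 called gene in the lists of other keratins.

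In KO cells the differences with ras were of mixed sign, and none was called (adjusted p of 0.941 to 1.0), where 0.539% of tested probes were. The first Krt6a probe was 1.37 ± 1.00 higher in KO ras than in KO mock, with 2.48, 5.23, 6.52, 7.05 and 7.58 against 1.85, 5.93 and 6.01. Against this, the second Krt6b probe was lower, with a difference of -1.13 ± 0.77, and read 2.16, 4.27, 4.57, 5.10 and 6.04 in KO ras. Krt16 differed by -0.03 ± 0.78 (95% interval -1.59 to 1.52). The ras effect in KO minus that in WT was negative for all 7 probes, from -2.75 to -0.32, with no call (smallest adjusted p = 0.698), where 0.0108% of tested probes were called. Krt15 fell by 2.94 ± 0.46 with ras in KO cells (adjusted p = 0.000151) and Krt84 fell by 3.20 ± 0.48 (adjusted p = 6.2e-05). KO mock and KO ras share no run, so run and ras cannot be told apart here; with run as a random block Krt15 and Krt84 had adjusted p-values of 0.0496 and 0.0188, and the probes called went from 151 to 10. These comparisons share the mock and ras samples with those of genotype.

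**Figure D2:**
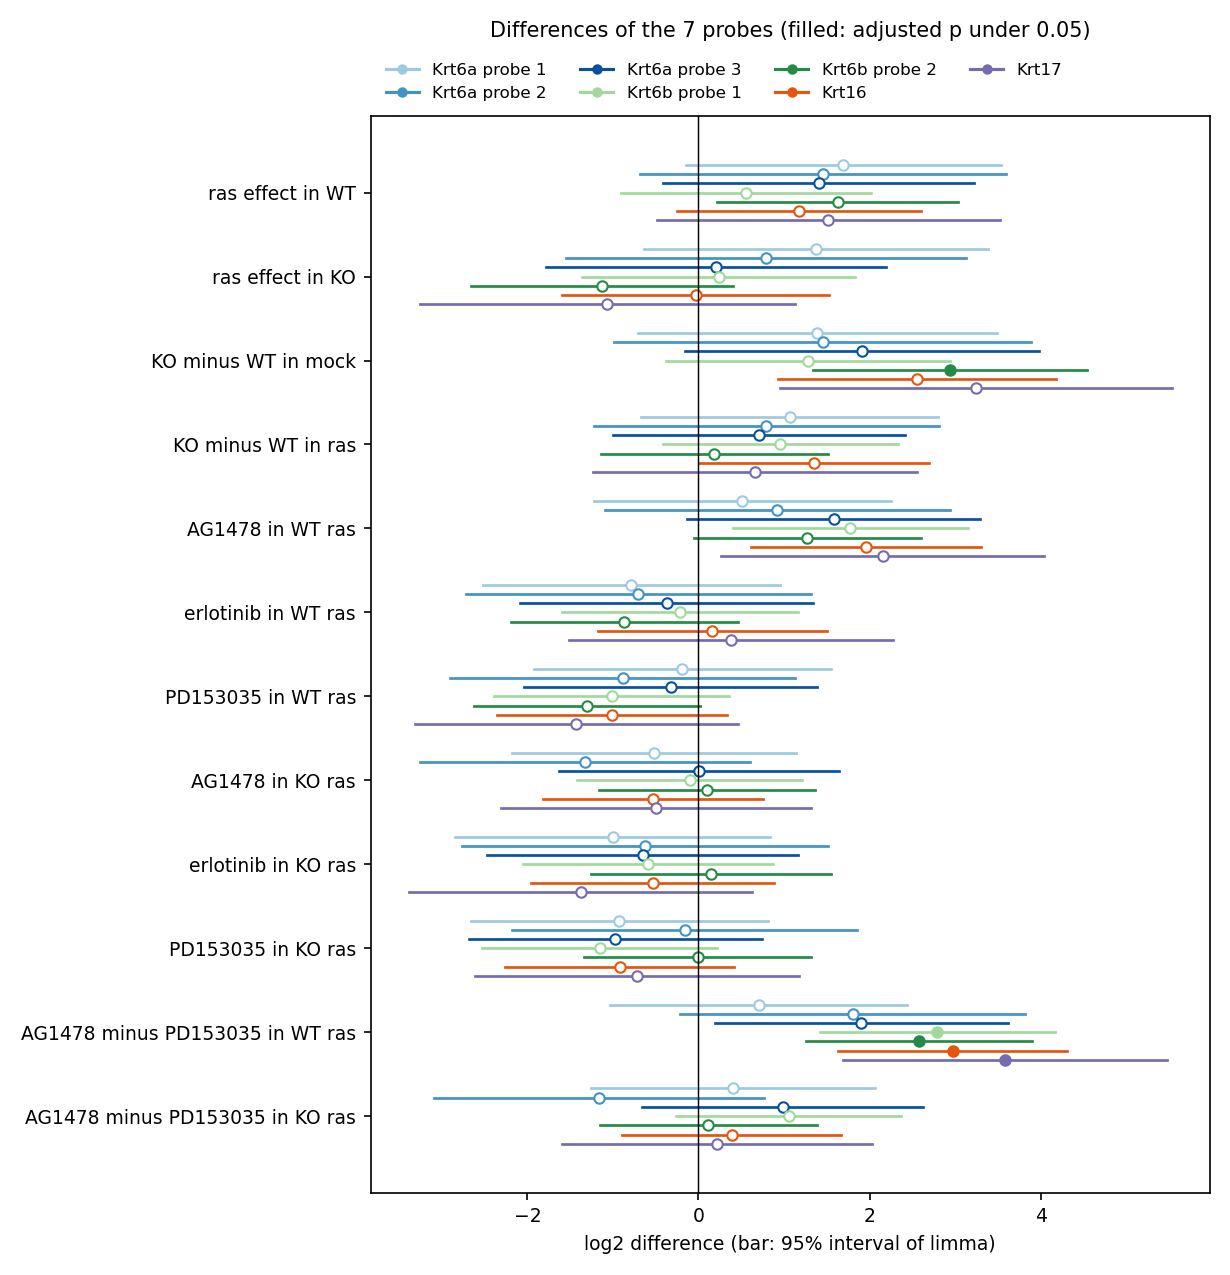
Log2 difference of each of the 7 probes in 12 comparisons, with limma's 95% interval; filled points passed an adjusted p of 0.05. The filled points are the second Krt6b probe in KO minus WT in mock, and both Krt6b probes, Krt16 and Krt17 in AG1478 minus PD153035 in WT ras.

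The inhibitors had no called effect on any member in WT mock cells. All 7 probes were higher with each of the 3 inhibitors, by 0.81 to 2.19 with AG1478, 0.26 to 1.5 with erlotinib and 0.07 to 0.97 with PD153035. The 3 comparisons share the WT mock samples. With AG1478, the second Krt6b probe read 3.82, 4.37, 4.55, 5.47 and 5.87, of which 4 of 5 were above all WT mock samples, and differed by 2.19 ± 0.70 (adjusted p = 0.69). No probe of the array was called by limma for any of the inhibitors in WT mock cells (0.0%); 1800, 885 and 952 probes had an unadjusted p under 0.05 with AG1478, erlotinib and PD153035.

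In WT ras cells the 3 inhibitors gave differences of unlike sign, again with no member called against WT ras without inhibitor. AG1478 had positive differences for all 7 probes, of 0.51 to 2.15, where 1.94% of tested probes were called. Krt16 read 6.07, 6.09, 7.68, 7.69 and 7.92 with AG1478, so 3 of 5 samples were above the highest WT ras sample, and differed by 1.96 ± 0.67 (adjusted p = 0.105). Krt17 read 5.36, 6.31, 6.89, 7.09 and 7.41 with AG1478, with 4 of 5 above WT ras, and differed by 2.15 ± 0.94 (adjusted p = 0.223). Sprr1a rose by 2.02 ± 0.58 with AG1478 (adjusted p = 0.0486) and Krt7, a simple epithelial type II keratin, by 2.12 ± 0.45 (adjusted p = 0.00906). WT ras shares no run of experiment numbers with WT ras with AG1478, erlotinib or PD153035, so run and inhibitor cannot be told apart in these comparisons. With run as a random block Sprr1a had an adjusted p of 0.375 and Krt7 of 0.212, and the probes called with AG1478 dropped from 539 to 8.

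PD153035 had negative differences for all 7 probes, of -1.43 to -0.19, where 0.66% of tested probes were called. Krt17 read 2.02, 2.06, 2.22, 4.38 and 4.5 with PD153035 and differed from WT ras by -1.43 ± 0.94 (adjusted p = 0.573). Erlotinib had 2 positive and 5 negative differences, of -0.86 to 0.38, where 3.4% of tested probes were called. Krt16 read 4.24, 4.47, 4.53, 5.47 and 7.76 with erlotinib and differed by 0.16 ± 0.67 (95% interval -1.18 to 1.5). WT ras erlotinib replicate 2 was the high sample, at 7.76 for Krt16 and 7.89 for Krt17. Krt7 was called higher with erlotinib as it was with AG1478, by 2.01 (limma adjusted p = 0.00837). With run as a random block its adjusted p with erlotinib was 0.118.

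Because dose and time matched, the inhibitors were also compared with each other, as 3 pairs in each of WT mock, WT ras and KO ras, each adjusted over all tested probes. These 9 comparisons were added after the levels of the members had been seen. AG1478 stood above PD153035 in WT ras cells for both Krt6b probes, Krt16 and Krt17, which made 4 of 7 probes and 3 of 4 genes called higher, where 0.58% of 27758 tested probes were called higher and 1.29% in either direction. The PD153035 samples fell into a low set and a high set for these keratins: replicates 1, 2 and 4 were low and replicates 3 and 5 high. The keratinocyte marker median of these samples split the same way, at 1.17, 2.53 and 1.85 in replicates 1, 2 and 4 and at 3.4 and 3.56 in replicates 3 and 5. Its part in the split was not tested.

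Krt16 read 2.82, 2.96, 3.01, 5.64 and 6.19 with PD153035 against the AG1478 values given above, with the highest PD153035 sample above the lowest AG1478 samples. Its difference was 2.97 ± 0.67 (adjusted p = 0.0194). Krt17 was the 1 member of 7 whose groups did not overlap, where 1.56% of tested probes lay apart in this direction, and its difference was 3.58 ± 0.94 (adjusted p = 0.0398). The first Krt6b probe read 4.38, 5.05, 5.83, 6.29 and 6.52 with AG1478 and 1.37, 1.80, 1.96, 4.30 and 4.69 with PD153035. The groups overlapped by 1 sample on each side, and the difference was 2.79 ± 0.69 (adjusted p = 0.0285). The second Krt6b probe read 4.42, 5.40, 5.69, 6.00 and 6.06 against 1.18, 2.03, 2.29, 4.47 and 4.73, a difference of 2.57 ± 0.66 (adjusted p = 0.0342). Here both Krt6b probes gave the same call.

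The Krt6a probes gave positive differences that did not pass: 0.70 ± 0.86 for the first (adjusted p = 0.713) with a 95% interval of -1.03 to 2.43, 1.80 ± 1.01 for the second (adjusted p = 0.345), and 1.90 ± 0.85 for the third (adjusted p = 0.226). Of other genes in the lists, Sprr1a was 2.79 ± 0.58 higher with AG1478 than with PD153035 (adjusted p = 0.0125), Pkp3 (plakophilin) 2.18 ± 0.56 (adjusted p = 0.0334) and Jup (plakoglobin) 1.46 ± 0.39 (adjusted p = 0.0441). With run as a random block their adjusted p-values were 0.0494, 0.241 and 0.157. None of 3 basal or 2 suprabasal keratins was called, with Krt5 at 2.32 ± 0.83 (adjusted p = 0.126) and Krt14 at 1.46 ± 0.68 (adjusted p = 0.246).

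The calls between AG1478 and PD153035 depended on single samples and on the run of experiment numbers. Leaving out AG1478 replicate 1 or 2 or PD153035 replicate 1 or 2 left 0 member genes called, and leaving out AG1478 replicate 5 or PD153035 replicate 4 left 1, which was Krt16. Over the 10 samples left out in turn, the differences of these 4 probes stayed between 2.10 and 3.95. All 5 PD153035 arrays were in run 8, with AG1478 replicates 3 and 4; the other 3 AG1478 arrays were in run 7. Within run 8 Krt17 read 5.36 and 6.31 with AG1478, above all PD153035 samples, a difference of 2.80 between means, and Krt16 read 6.07 and 6.09, below 1 of the PD153035 samples, a difference of 1.96. With only the groups compared fitted and run as a fixed block, the limma adjusted p-values were 0.21 for Krt17 and 0.344 for Krt16. The same smaller fit without a run term gave 0.0915 for Krt17 and 0.119 for Krt16. With all groups fitted and run as a random block they were 0.157 and 0.127. The keratinocyte marker median was 1.81 to 4.38 with AG1478 and 1.17 to 3.56 with PD153035. That median takes 1 probe per gene. After centring each array on the median over all probes of the keratinocyte marker genes, the differences of Krt16 and Krt17 were 2.16 ± 0.52 and 2.77 ± 0.79, both with an adjusted p of 0.166. The part of cell content in the difference was not tested.

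**Figure D3:**
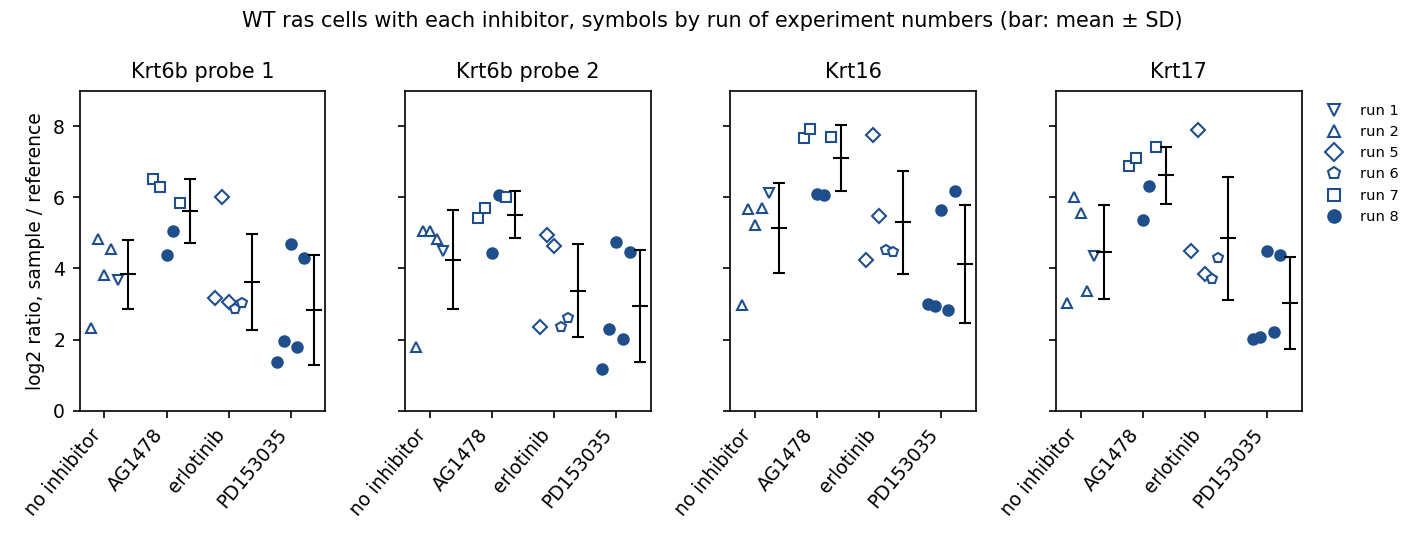
Log2 ratio of both Krt6b probes, Krt16 and Krt17 in WT ras cells without inhibitor and with AG1478, erlotinib or PD153035, 1 symbol per sample with the symbol giving the run of experiment numbers (run 8 filled), and the mean ± SD as a bar. The 3 AG1478 samples of run 7 are the highest of their group for Krt16 and Krt17, and the 5 PD153035 samples split into 3 low and 2 high.

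The other inhibitor pairs gave no call among the members. In WT ras and KO ras cells erlotinib shares no run with AG1478 or PD153035, so run and inhibitor cannot be told apart in those pairs. AG1478 stood above erlotinib in WT ras cells for all 7 probes, by 1.3 to 2.14, where 0.897% of tested probes were called. For the second Krt6b probe the difference was 2.14 ± 0.66 (adjusted p = 0.0939). Without the high sample, WT ras erlotinib replicate 2, both Krt6b probes and Krt16 passed, with differences of 2.56, 2.50 and 2.38 (adjusted p = 0.0294, 0.0328 and 0.039). That sample stood out by its own values of these members, and the share of all probes called without it is not given here. These calls are therefore no result about the members. Erlotinib against PD153035 in WT ras ranged from -0.60 to 1.81 over the probes (smallest adjusted p = 0.576), where 0.176% of tested probes were called. In WT mock cells the 3 pairs ranged from -0.08 to 1.28, and every adjusted p was 1.0.

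In KO ras cells, which are labelled as lacking the inhibitors' target, no member was called with any inhibitor against KO ras. AG1478 gave -1.32 to 0.10, erlotinib -1.38 to 0.15 and PD153035 -1.16 to -0.01 over the 7 probes. The share of all tested probes called was 0.225%, 0.0543% and 4.83%. Krt16 read 5.07, 5.17, 6.10, 6.27, 6.51 and 6.73 with AG1478, inside the range of KO ras. Krt16 read 4.86 to 6.79 with erlotinib and 4.54 to 7.24 with PD153035, ranges that also overlap those of KO ras. KO ras shares runs with its erlotinib samples, and none with those of AG1478 or PD153035. The 3 pairs of inhibitors ranged from -1.16 to 1.05 with no call (smallest adjusted p = 0.67). The share of probes called was 0.243% for AG1478 against erlotinib, 0.745% for AG1478 against PD153035 and 5.82% for erlotinib against PD153035.

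The AG1478 effect in KO ras minus that in WT ras was negative for all 7 probes, from -2.65 to -1.04, with no call where 0.874% of tested probes were called. Krt16 had -2.49 ± 0.93 (adjusted p = 0.158) and Krt17 -2.65 ± 1.31 (adjusted p = 0.289). For erlotinib and PD153035 the same difference of effects ranged from -1.76 to 1.01 and from -0.74 to 1.29, where 0.0653% and 0.0933% of probes were called.

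Genotype and ras were also compared with the inhibitors present, and no member was called. With AG1478, KO ras minus WT ras ran from -1.99 to 0.03 over the 7 probes, and Krt17 read 1.67, 3.30, 5.16, 5.82, 5.84 and 6.17 in KO ras. These samples overlap those of WT ras with AG1478, and the difference was -1.99 ± 0.90 (adjusted p = 0.265). With erlotinib the same contrast ran from -1.10 to 1.20, and with PD153035 from 0.06 to 1.51. The genotypes share runs here: all ras samples with PD153035 were in run 8, and those with erlotinib in runs 5 and 6. With AG1478 the KO samples were in run 8 and the WT samples in runs 7 and 8. The shares of all probes called were 2.22%, 0.945% and 1.38%. In WT cells, ras minus mock was 0.56 to 2.13 with AG1478, all positive, with Krt16 at 1.95 ± 0.67 (adjusted p = 0.0742). It was -0.59 to 1.20 with erlotinib and -0.61 to 1.01 with PD153035. The shares of probes called were 5.17%, 5.23% and 1.19%. Mock and ras samples given the same inhibitor share no run.

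These results on KO ras with AG1478 change with the direction given to the 2 arrays whose label and ratios disagree. The labels' direction puts keratinocyte genes below the reference pool's genes on both. With the direction taken from the labels, AG1478 in KO ras gave -4.51 to -3.19 over the 7 probes, 6 of them called lower, and KO minus WT in ras with AG1478 gave -5.68 to -3.44, again with 6 called lower. The difference of AG1478 effects then ran from -6.38 to -4.46 with 2 probes called. AG1478 against erlotinib in KO ras gave -3.93 to -2.85 with 3 called, and against PD153035 -4.35 to -2.31 with 1 called. Relative to the ratios, the labels' direction inverts every probe on the 2 arrays. The shares of all tested probes called with it are not given here, so these counts are no result about the members. With the direction taken from the ratios no member was called in these comparisons, and leaving both arrays out gave no call either.

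The 7 probes rose and fell together over the samples. Pearson's r over 62 samples ran from 0.531 (the first Krt6a probe with Krt17) to 0.819 (the first Krt6b probe with Krt16), with a median of 0.712 over 21 pairs; these samples share the reference, and many share a run. Within groups, after each group's mean was taken off, r ran from 0.519 to 0.759. Within run 2 (17 samples) r was 0.564 to 0.896, within run 8 (18 samples) 0.076 to 0.908, and within runs 1 and 5 (7 samples each) -0.361 to 0.865 and 0.023 to 0.812. Krt16 and Krt17, the neighbouring type I genes, had r = 0.772. The Krt6b probes had r = 0.751 with each other, and the Krt6a probes 0.584 to 0.718. Without the 2 samples farthest from the median on the x axis, r ran from 0.487 to 0.811, and Spearman's rho over all samples from 0.557 to 0.81.

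The first Krt6b probe and Krt16, partners in a filament pair, ranged from 1.31 to 6.52 and from 2.79 to 7.92 over samples. With the keratinocyte marker median r was 0.408 to 0.65 over the 7 probes, with the fibroblast marker median -0.196 to -0.005, and with the SD of the array 0.002 to 0.257.

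**Figure D4:**
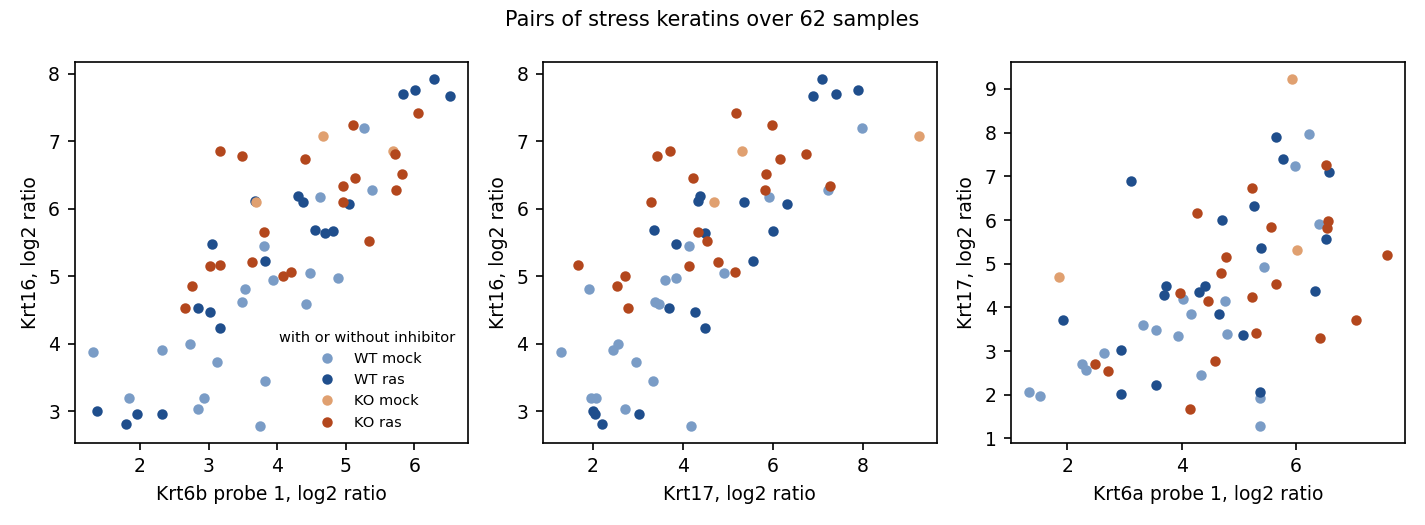
Krt16 against the first Krt6b probe, Krt16 against Krt17, and Krt17 against the first Krt6a probe, as log2 ratios in 62 samples coloured by genotype and ras, with and without inhibitor. The points rise together in the first 2 panels (r = 0.819 and 0.772) and scatter more in the third (r = 0.531).

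The probes of other genes that were most like the members over the 62 samples were looked for among 15399. Krt16 was most like Dmkn (dermokine, r = 0.847) and Sprr1a (0.818), followed by Izumo1r, Tns4 and Lgals7. The first Krt6b probe was most like Krt5 (0.846) and Dmkn (0.834), followed by Sbsn (suprabasin), Rhog and Sprr1a. Krt17 was most like Dmkn (0.799), Krt5 (0.779), Klk6 (0.779), Sprr1a (0.738) and Pkd1l2. The first Krt6a probe had weaker matches, with Sprr1b at 0.616 and Col17a1 at 0.613, followed by Gnat2, Krt1 and Krt10. Dmkn and Sprr1a were among the 5 closest to 3 of the 4 members. Member probes were not always closer to each other than probes of other genes were. For Krt17, 267 probes of other genes had a higher r than the first Krt6a probe (r = 0.531). The probes of Krt6a differed in this: 197 had a higher r than the second (0.548) and 3 than the third (0.74). For the first Krt6a probe, 0 had a higher r than Krt16.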

How the data were processed

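The deposited table held log ratios of the 2 dyes per probe, taken as log2 and used as the authors deposited them: 24860 to 28047 values per array, with array medians of -0.072 to 0.067. Its background correction, normalization, log base and direction are not given in the sources used here, per the labels. Direction was read from each array's correlation with the median forward-labelled array. The direction of that median was the one with keratinocyte genes above the reference pool's genes. WT mock had 2 arrays labelled repeat 1, of opposite dye order (r = 0.834), which were averaged, so 63 arrays gave 62 samples. All 13 groups and a dye-order term were fitted with limma 3.58.1 (R 4.3.3; Python 3.11.15 for the other steps). Probes with values on 60% of the arrays of each group compared were tested, and p-values were Benjamini-Hochberg adjusted over them per comparison (threshold 0.05). The test was checked on simulated data with independent noise and no run effect, so that check says nothing about runs. Runs parted the experiment numbers where the gap exceeded 100, which gave 8. The number of arrays limits the precision; spot signals were not used here.

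Named were all member probes, the 5 probes most like each member, part of the called genes of the lists, and some other keratins. Further list genes were called and are not named in the results. Examples are Krt24 in KO minus WT in ras, Fos with PD153035 in WT ras and Il24 with erlotinib in WT ras, all lower. A list gene that is not named was thus not always uncalled. For list genes and members where 1 probe is needed, the probe with most values was used (ties by lower ID). Gene names come from the platform annotation. The members and lists were chosen with earlier results of these data known. Alternatives covered the dye term, dye order, averaging, centring, filters, blocks, weights and each sample left out.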

Additional observations from a re-analysis of the deposited data

Results flagged for a closer look

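Of 84 groups of 4 to 6 samples checked for a sample standing apart from the others (Dixon's 95% limit, which chance passes in about 1 of 20), 9 had one. For the first Krt6a probe (1787090_1), KO ras erlotinib replicate 4 was low at 2.71 against 5.22 to 5.65, and KO ras PD153035 replicate 5 was high at 6.55 against 3.97 to 4.68. For the second Krt6a probe (1789701_1), KO ras AG1478 replicate 1 was low at -0.38 against 4.18 to 5.66. For the third Krt6a probe (1791205_1), KO ras PD153035 replicate 5 was high at 6.65 against 4.08 to 4.52. WT ras erlotinib replicate 2 was high for the first Krt6b probe (6.01 against 2.85 to 3.17) and for Krt17 (7.89 against 3.71 to 4.5). WT ras replicate 1 was low for the second Krt6b probe (1.80 against 4.48 to 5.06) and for Krt16 (2.96 against 5.23 to 6.12). WT mock PD153035 replicate 5 was high for Krt17, at 7.23 against 1.92 to 3.38. Of these samples, 3 stood apart for 2 probes each.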

How the results depend on the processing

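Values below count member genes, of 4, with at least 1 called probe. KO minus WT in mock had 1, and 0 with no dye term, with only the groups compared, with probes averaged by gene, with run as a random block, with the replicate block, with direction and dye term by label, with the disagreeing arrays left out, and with keratinocyte centring (chosen after seeing the data); it had 3 with array weights and with arrays scaled to one spread (also chosen later). AG1478 minus PD153035 in WT ras had 3, and 0 with forward arrays only, only the groups compared, run as a random or a fixed block, direction by label, and keratinocyte centring. The fit with run as a fixed block also held only the groups compared. Krt17 lost its call in this comparison with no dye term (limma adjusted p = 0.0589) and with quantile normalization (0.0594). AG1478 minus PD153035 in WT ras had 4 with array weights, where the third Krt6a probe passed at 2.6 (adjusted p = 0.0397). Array weights gave 1 for AG1478 in WT ras, PD153035 in KO ras, the ras effect in WT with AG1478 and the AG1478 effect in ras KO minus WT, and 2 for KO minus WT in ras with PD153035, where the main value was 0. The shares of all probes called with array weights are not given for these comparisons, so these counts are no result about the members. Weights raised the probes called from 310 to 2846 in KO minus WT in mock. In AG1478 minus PD153035 in WT ras they raised them from 357 to 2899. Direction by label gave 4 for AG1478 in KO ras and for KO minus WT in ras with AG1478, 2 for the AG1478 effect in ras KO minus WT, 3 for AG1478 minus erlotinib in KO ras and 1 for AG1478 minus PD153035 in KO ras, again from 0. It turned the sign of the second Krt6b probe in AG1478 in KO ras, to -3.19. The sign of Krt16 in AG1478 minus erlotinib in KO ras also turned, to -3.93. The shares of all probes called with direction by label are not given for these comparisons. Keratinocyte centring gave 1 for the ras effect in WT with AG1478, where the share of all probes called with it is not given either. The causes were not tested.

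Over single samples left out, the count ranged from 0 to 0 for KO minus WT in mock, 0 to 3 for AG1478 minus PD153035 in WT ras, 0 to 1 for the ras effect in WT with AG1478 (1 without WT mock AG1478 replicate 5 or WT ras AG1478 replicate 3), and 0 to 2 for AG1478 minus erlotinib in WT ras. The shares of all probes called with a sample left out are not given here. In 20 of 32 comparisons the count moved under none of the alternatives run.

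Replicate numbers did not pair the samples: in 0 of 28 comparisons was every same-number correlation over 0.1 (range -0.448 to 0.702). With the replicate block, the second Krt6b probe in KO minus WT in mock gave 3.08 ± 0.82 (limma adjusted p = 0.0548), and Krt16 in AG1478 minus PD153035 in WT ras 2.97 ± 0.64 (0.017).

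Over all tested probes, KO minus WT in mock had 310 called, 4 with only its groups fitted, 8 with run as a random block, 5 with keratinocyte centring and 2846 with array weights. AG1478 minus PD153035 in WT ras had 357, 0, 33, 0 and 2899 in the same order.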
